A study of Mus musculus with 24 samples.

Results

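Abcb1a, Abcb1b and Abcb4 are 3 genes for multidrug transporters that lie close together on mouse chromosome 5. They were taken by gene name from the annotation in the array files, control spots left out, which found 1 probe for each gene, 3 genes of the 28121 named on the array. Adrenal gland RNA had been measured on 24 one-colour Agilent microarrays, with 3 arrays for every one of 8 groups. The groups were castrated male Kcnk3 null, castrated male WT, testosterone-injected female Kcnk3 null, testosterone-injected female WT, sham female Kcnk3 null, sham female WT, sham male Kcnk3 null and sham male WT. All mice were labelled C57BL/6. Kcnk3 encodes the background potassium channel TASK1, and the series' description calls the genotype null without giving the allele. Age, testosterone dose and the time from surgery or injection were not in the sources used here. The sources speak of 8 groups of animals without tying each array to an animal, so p-values measure the spread between these arrays, which may be partly technical.

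The 3 proteins are ATP-binding cassette transporters of the ABCB subfamily, membrane pumps that use ATP to move their substrates across or out of the membrane. Mice have Abcb1a and Abcb1b where humans have ABCB1 alone, and both encode P-glycoproteins, which expel many hydrophobic drugs and also some steroids from cells. Abcb1a is best known from the capillaries of the brain and from the gut, and Abcb1b from the adrenal cortex, kidney and pregnant uterus. Abcb4 moves phosphatidylcholine to the outer leaflet of the membrane and is known for carrying phospholipid into bile in the liver. In the RefSeq annotation of GRCm38.p6 the order along the chromosome is Rundc3b, Abcb1a, the long noncoding RNA genes Gm31157 and Gm5106, Abcb1b and Abcb4.

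Each gene was read by a single 60-base probe on the plus strand, toward the end of its transcript. The mm9 positions in the files are chr5:8748075-8748134 for Abcb1a, chr5:8865925-8865984 for Abcb1b and chr5:8959108-8959167 for Abcb4. The probes start at base 4481 of the Abcb1a transcript, base 3954 of the Abcb1b transcript and base 3956 of the Abcb4 transcript. They are shown because what follows turns on Abcb1b and Abcb4 giving nearly the same readings. The first 30 bases are printed for Abcb1a and Abcb1b and all 60 for Abcb4, with the longest run that the Abcb1b and Abcb4 probes share in capitals.
Abcb1a: actcagacatgggcacctgagttcagatcc
Abcb1b: TCCAGGCtggagcaaagcgctcatgagctg
Abcb4: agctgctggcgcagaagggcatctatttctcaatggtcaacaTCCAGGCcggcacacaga
The shared run is 7 bases long, the same as the longest run shared by the Abcb1a and Abcb1b probes, and that shared by Abcb1a and Abcb4 is 5 bases. Whether the Abcb4 probe also binds Abcb1b RNA, or the reverse, was not tested, as the transcript sequences were not used here.

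Values are log2 of the background-subtracted signal minus the 75th percentile of the same array, so each is a level of that probe relative to its own array. Levels of different probes are not set against each other. All 3 probes were well above background and unsaturated on 24 of 24 arrays, and none of their spots was marked as an outlier. Each difference carries its standard error from a limma fit of all 8 groups, 3 arrays against 3 unless stated. A feature counted as called when its p, adjusted by Benjamini-Hochberg over 31080 features, was under 0.05. The share of all features without overlap between 2 groups is not given here. The 3 genes were chosen by name with earlier results of these arrays in view, and the sources do not say which log2 difference prompted the choice, so their adjusted p-values set the size of a difference against the spread and are no independent support.

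On the arrays as a whole, the share of spots well above background was 57.0% to 64.8%, and the 75th percentile of signal ranged from 426 to 1099. The arrays lay on 4 slides. Sham female WT 3 and testosterone female WT 3 were alone on slide 4 and had an RNA integrity number of 3, testosterone female null 3 had 5, and the other arrays had 6 to 9. Kcnk3 read 9.43% to 69.0% of the mean of the sham male WT arrays on the null arrays, against 71.0% to 196% on the WT arrays. Its probe may lie outside the deleted part, so it does not test the labels. 9 arrays carried at least 10% of the sex-linked signal of the sex opposite to their label: sham male null 1 and 2, castrated male null 1 and 2, sham female WT 2 and 3, and testosterone female WT 1, 2 and 3. All 9 were null males or WT females, so within each sex this signal went with genotype. Below 10%, castrated male null 3 and sham male null 3 still read Xist well above background, at 4.15% and 6.08% of sham female null. WT males read at most 1.11%, not above background. 2 arrays, testosterone female null 1 and sham male WT 3, carried strong albumin signal, a liver transcript. Calls that rest on these arrays are given with and without them.

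Abcb1b, the P-glycoprotein gene of the adrenal cortex, read 5.57, 5.69 and 5.55 in the 3 castrated male null arrays, against 7.62, 7.22 and 6.90 in the 3 sham male null arrays. The groups were far apart, and every castrated null array lay below the lowest sham null array. The WT counterparts read 6.65, 6.98 and 6.48 after castration, against 6.97, 6.86 and 6.78 after sham surgery, and these groups overlapped. In females, Abcb1b read 6.02, 6.98 and 6.37 in testosterone null arrays, against 5.72, 5.96 and 5.17 in sham null arrays, which did not overlap, although the nearest arrays lay close together. Testosterone WT females read 6.29, 6.09 and 5.78, and sham WT females read 6.20, 6.64 and 5.92, with overlap. The lowest levels of the gene were thus in castrated null males and sham null females, and the highest in sham null males.

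Abcb4, the phosphatidylcholine transporter gene, read 5.37, 5.45 and 5.38 in castrated male null arrays, against 7.42, 7.05 and 6.63 in sham male null arrays. Castrated WT males read 6.45, 6.75 and 6.27, and sham WT males read 6.71, 6.72 and 6.57. Testosterone null females read 5.93, 6.89 and 6.25, against 5.57, 5.81 and 5.04 in sham null females. Testosterone WT females read 6.07, 5.98 and 5.65, and sham WT females read 5.90, 6.47 and 5.88. Group by group this closely followed the Abcb1b readings, with the castrated and sham null males again separate and the castrated and sham WT males again overlapping. Sham null females lay below all sham WT females, at 5.81 against 5.88 for the nearest arrays. For Abcb1b these groups overlapped narrowly, at 5.96 against 5.92, so this does not set the 2 genes apart.

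Abcb1a, the P-glycoprotein gene of brain capillaries and gut, varied little. It read 0.69, 0.69 and 1.06 in castrated null males, against 0.64, 0.73 and 0.72 in sham null males. Castrated WT males read 1.21, 1.20 and 0.70, and sham WT males read 0.84, 0.68 and 0.45. Testosterone null females read 1.11, 0.94 and 0.44 and sham null females 0.88, 0.75 and 0.37, while testosterone WT females read 0.65, 0.87 and 0.47 and sham WT females 0.98, 0.90 and 0.47. Every group overlapped its counterpart. Over all 24 arrays the range of Abcb1a was 0.85 on the log2 scale, compared with 2.46 for Abcb1b and 2.38 for Abcb4, and its SD over all arrays, 0.24, was no larger than its pooled SD within groups, 0.25. For Abcb1b the SD over all arrays was 0.62 against 0.32 within groups, and for Abcb4 it was 0.61 against 0.31.

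**Figure D1:**
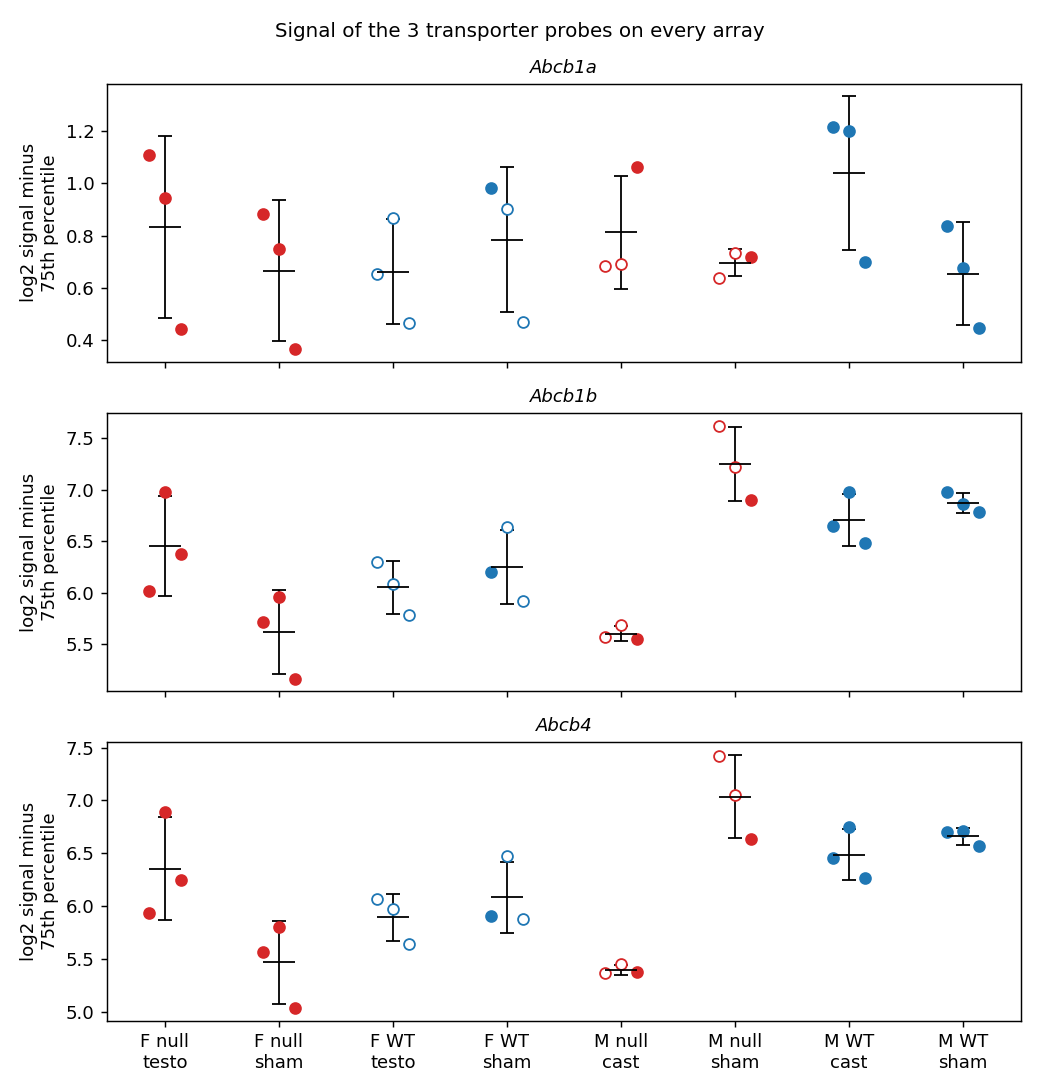
Level of each probe on every array, as log2 signal minus the 75th percentile of the array, with a panel for each gene and a column for each of the 8 groups. Red symbols are null and blue symbols WT arrays, and open symbols are the 9 arrays with at least 10% opposite-sex signal. Castrated null males, between 5.55 and 5.69 for Abcb1b, lie below all sham null males, between 6.90 and 7.62, while Abcb1a stays between 0.37 and 1.21, drawn on a finer axis than the other panels. Horizontal lines with bars are the group mean ± SD (n = 3).

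As a percentage of the mean signal of sham WT males, Abcb1b averaged 132.5% ± 33.3 in sham null males, 89.8% ± 16 in castrated WT males, 77.8% ± 26.8 in testosterone null females, 66.4% ± 16.9 in sham WT females, 57.3% ± 10.03 in testosterone WT females, 42.9% ± 11.4 in sham null females and 41.5% ± 2.19 in castrated null males (SD, n = 3 each). Abcb4 had the same order, with 132.5% ± 35.6 in sham null males at the top, and 44.8% ± 11.5 in sham null females and 41.6% ± 1.30 in castrated null males at the bottom (SD, n = 3 each). Neighbours in this order overlapped at every step for both genes, so the order of adjacent groups is not established. Abcb1a ordered the groups differently, with castrated WT males highest at 131.4% ± 25.1 and sham WT males lowest by mean log2 level, and its neighbours overlapped at every step too (SD, n = 3 each).

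Castration was compared with sham surgery in males to ask what removal of the testes did to the transporters in each genotype. In null males Abcb1b fell by 1.65 ± 0.26 on the log2 scale (95% interval -2.19 to -1.10, limma adjusted p = 0.00239). Abcb4 fell by 1.64 ± 0.25 (-2.17 to -1.10, adjusted p = 0.0023). Abcb1a differed by 0.12 ± 0.21 (-0.32 to 0.55, adjusted p = 0.978). Thus 2 of the 3 genes were called, where 1% of all features were. The 3 genes were chosen with earlier results in view, and the 2 called probes read nearly alike. The count is therefore a description and shows no enrichment. Since glands were taken whole, fewer cells of a type and less RNA per cell cannot be told apart.

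The fall in null males was present on each of 3 slides, with Abcb1b at -2.05, -1.53 and -1.35 on the log2 scale and Abcb4 at -2.05, -1.60 and -1.25 for slides 1, 2 and 3, 1 array against 1. With slide as a block both genes remained called, at an adjusted p of 0.000612 and 0.00058. Slide 3 holds the castrated and sham null male arrays under the 10% limit, which still carried 4.15% and 6.08% of the female null Xist signal. That slide gave the smallest difference. With the 9 arrays of opposite-sex signal left out, 1 array remained on each side and the differences were -1.35 for Abcb1b (adjusted p = 0.734) and -1.25 for Abcb4 (adjusted p = 0.808), the lone arrays being assumed to vary like the other groups. These 9 arrays thus end the call but not the direction. The albumin arrays were in neither group.

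In WT males the castrated minus sham difference was -0.17 ± 0.26 for Abcb1b (95% interval -0.71 to 0.37, limma adjusted p = 1) and -0.17 ± 0.25 for Abcb4 (-0.71 to 0.36, adjusted p = 1). Abcb1a was at 0.38 ± 0.21 and also missed the threshold (adjusted p = 0.919). Among all features 0.598% were called there. The castration effect in null minus that in WT males was itself tested: it was -1.48 ± 0.36 for Abcb1b (95% interval -2.24 to -0.71, unadjusted p = 0.00073, limma adjusted p = 0.246) and -1.46 ± 0.36 for Abcb4 (unadjusted p = 0.000708, adjusted p = 0.246). For Abcb1a it was -0.27 ± 0.29 (adjusted p = 1). The genotypes are therefore not shown to differ in this response after adjustment, in a contrast where 0.0804% of features were called. Array quality weights brought the difference past the threshold, at -1.52 for Abcb1b (adjusted p = 0.00528) and -1.53 for Abcb4 (adjusted p = 0.00491), and none of the other alternatives did.

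Null and WT glands were compared directly after castration. Abcb1b was at -1.10 ± 0.26 (95% interval -1.64 to -0.56, unadjusted p = 0.000453, limma adjusted p = 0.0589) and Abcb4 at -1.09 ± 0.25 (adjusted p = 0.0563), while Abcb1a was at -0.23 ± 0.21 (adjusted p = 1). Castrated null arrays lay below all castrated WT arrays for Abcb1b and Abcb4, but both genes missed the threshold narrowly, in a comparison that called 0.698% of features. All 3 slides gave the same sign, with Abcb1b at -1.08, -1.29 and -0.93 on slides 1, 2 and 3. A blocked fit changed the call: both genes passed with the replicate number as a block (adjusted p = 0.0109 for Abcb1b and 0.01 for Abcb4) and with slide as a block (adjusted p = 0.013 and 0.0127). Of 38 alternatives, 12 called Abcb1b and 14 called Abcb4, with values from -1.21 to -0.96 for Abcb1b and from -1.20 to -0.96 for Abcb4. Without the 9 arrays of opposite-sex signal the values were -1.15 (adjusted p = 0.719) and -1.11 (adjusted p = 0.764).

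Between sham groups of null and WT mice neither gene passed the threshold in either sex. Opposite-sex signal was on sham male null 1 and 2, sham female WT 2 and 3, and testosterone female WT 1, 2 and 3. Genotype and that signal cannot be told apart in the values below. Sham female WT 3 and testosterone female WT 3 also had an RNA integrity number of 3. In sham males the null minus WT difference was 0.38 ± 0.26 for Abcb1b (limma adjusted p = 0.999) and 0.37 ± 0.25 for Abcb4 (adjusted p = 0.999), with 0.0837% of features called. In sham females it was -0.64 ± 0.26 for Abcb1b (unadjusted p = 0.0236, adjusted p = 0.4) and -0.61 ± 0.25 for Abcb4 (adjusted p = 0.423), with 0.486% called. There the groups overlapped narrowly for Abcb1b, with null arrays up to 5.96 and WT arrays from 5.92. For Abcb4 they lay narrowly apart, with null arrays up to 5.81 and WT arrays from 5.88. In testosterone females it was 0.40 ± 0.26 for Abcb1b (adjusted p = 0.804) and 0.46 ± 0.25 for Abcb4 (adjusted p = 0.718), with 0.0354% called. Single arrays moved these values by more than 1.5 times. In testosterone females Abcb1b was at 0.14 without testosterone null 2 and at 0.62 without testosterone null 1, in sham males it was at 0.19 without sham null 1, and in sham females it was at -0.41 without sham null 3. The signs thus ran both ways, and the average over the 4 pairs of null and WT groups was -0.24 ± 0.13 for Abcb1b (adjusted p = 0.426) and -0.22 ± 0.13 for Abcb4 (adjusted p = 0.479), with 2.39% called. Abcb1a stayed between -0.12 and 0.17 in these comparisons, the average included.

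Testosterone was compared with sham treatment in females. In null females Abcb1b was at 0.84 ± 0.26 (95% interval 0.30 to 1.38, unadjusted p = 0.00433, limma adjusted p = 0.379) and Abcb4 at 0.88 ± 0.25 (unadjusted p = 0.00263, adjusted p = 0.299). The groups did not overlap, yet neither gene was called, where 0.209% of features were, and with array quality weights Abcb4 alone passed, at 1.00 (adjusted p = 0.0475). None of the arrays in these 2 groups carried opposite-sex signal. Without the 2 albumin arrays, testosterone null 1 among them, the differences were 1.06 for Abcb1b (adjusted p = 0.184) and 1.10 for Abcb4 (adjusted p = 0.154). On slides 1, 2 and 3 Abcb1b differed by 0.30, 1.02 and 1.21.

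In WT females the testosterone minus sham difference was -0.20 ± 0.26 for Abcb1b (limma adjusted p = 1) and -0.19 ± 0.25 for Abcb4 (adjusted p = 1), with 0.074% of features called. Of these 6 WT arrays 5 carried opposite-sex signal, and no testosterone WT array remained without it. The testosterone effect in null minus that in WT females was 1.04 ± 0.36 for Abcb1b (unadjusted p = 0.0106, adjusted p = 0.89) and 1.07 ± 0.36 for Abcb4 (adjusted p = 0.794), where 0.0965% of features were called. Abcb1a was at 0.17 ± 0.21 in null and -0.12 ± 0.21 in WT females, and both missed the threshold.

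Sham females and sham males were compared for the effect of sex. In null glands Abcb1b was lower in females, by -1.63 ± 0.26 on the log2 scale (95% interval -2.18 to -1.09, limma adjusted p = 0.00372), and so was Abcb4, by -1.56 ± 0.25 (adjusted p = 0.00494). Abcb1a was at -0.03 ± 0.21 (adjusted p = 0.995). Again 2 of the 3 genes were called, where 0.746% of all features were, a description with the same limits. The sham null males are the same arrays as in the castration comparison, so the castration and sex differences in null mice are not separate measurements of the high level in sham null males. Without the 9 arrays of opposite-sex signal, with 1 sham null male array left, the differences were -1.29 for Abcb1b (adjusted p = 0.474) and -1.16 for Abcb4 (adjusted p = 0.559). Abcb1b was lower in females on each of slides 1, 2 and 3, by -1.90, -1.26 and -1.74, and with slide as a block both genes remained called (adjusted p = 0.00103 and 0.00117).

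In WT glands the female minus male difference was -0.62 ± 0.26 for Abcb1b (unadjusted p = 0.0274, limma adjusted p = 0.296) and -0.58 ± 0.25 for Abcb4 (unadjusted p = 0.0348, adjusted p = 0.329). All female WT sham arrays lay below all male WT sham arrays for both genes, but neither was called, where 2.01% of features were. Sham female WT 2 and 3 carried 25.4% and 45.5% of the Y-linked signal of sham WT males. Sham female WT 3 also had an RNA integrity number of 3, and sham male WT 3 carried strong albumin signal. Abcb1a was at 0.13 ± 0.21 (adjusted p = 0.914).

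**Figure D2:**
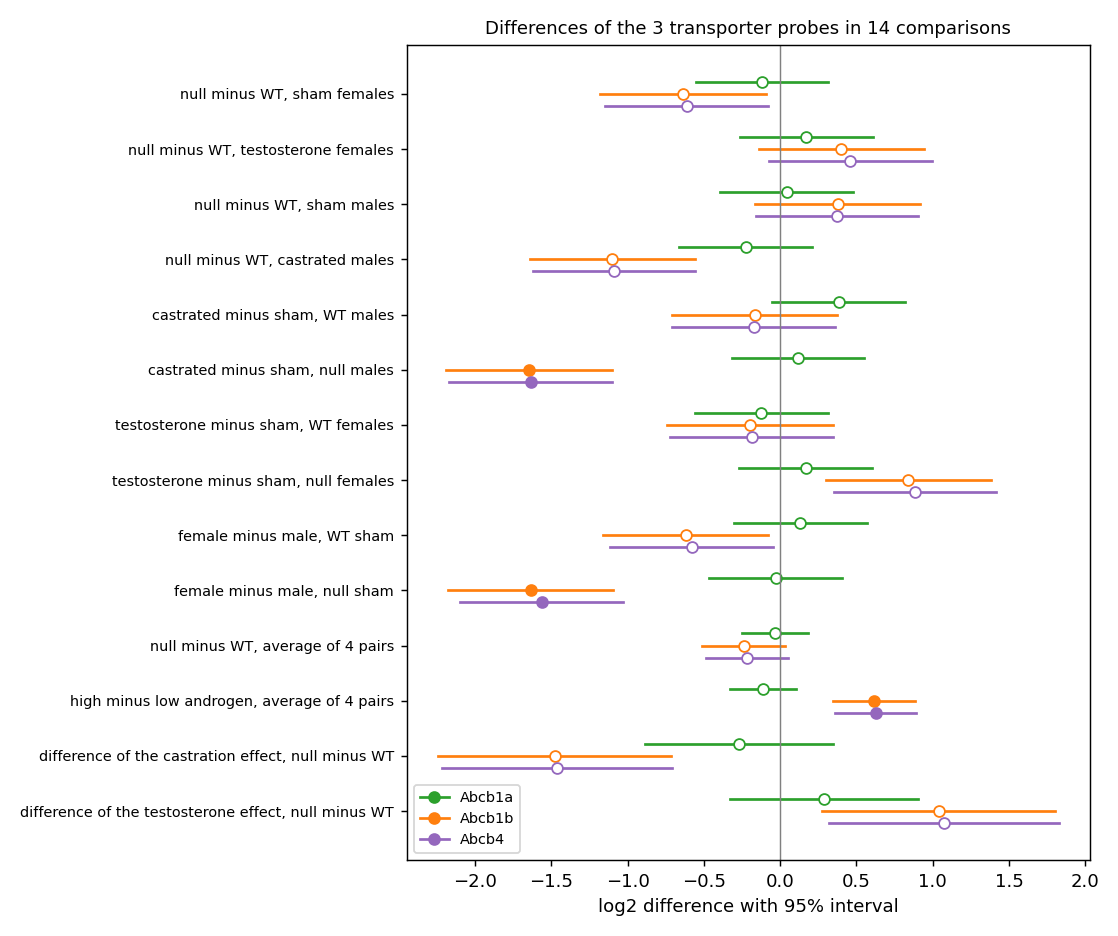
Log2 difference of each gene in the 14 comparisons, with the 95% interval of the limma fit, not adjusted for the number of tests. Filled symbols are those called at an adjusted p under 0.05. Abcb1b and Abcb4 lie on nearly the same values throughout, lowest at -1.65 and -1.64 for castrated minus sham null males, while Abcb1a stays between -0.27 and 0.38 with every interval spanning 0.

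Sham males and testosterone females were also set against castrated males and sham females as groups of high and low androgen by design, averaged over the 4 pairs. No hormone level was used here. Abcb1b was higher by 0.61 ± 0.13 (95% interval 0.34 to 0.88, limma adjusted p = 0.0108) and Abcb4 by 0.63 ± 0.13 (0.36 to 0.89, adjusted p = 0.00818). Abcb1a was at -0.11 ± 0.10 (adjusted p = 0.851). Here 2 of 3 genes were called, where 2.79% of features were, and both stayed called in 37 of 37 alternatives. As the genes were chosen with earlier results in view and the 2 read nearly alike, this count shows no enrichment. The 9 arrays of opposite-sex signal could not be left out, as they include all testosterone WT females. The average uses the same arrays as the comparisons above and combines pairs that differ in value: for Abcb1b, castrated minus sham was -1.65 in null and -0.17 in WT males, and testosterone minus sham was 0.84 in null and -0.20 in WT females. It is therefore not the response of each genotype.

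With each array scaled by its own signal, as in the main fit, Abcb1b and Abcb4 moved together almost array by array. Their Pearson correlation over 24 arrays was 0.995, Spearman's rho 0.991, and the correlation over the 8 group means 0.998. Within groups, after the group means were taken out, it was 0.982. Once centred, the readings of the 2 genes on this scaling differed by no more than 0.13 on the log2 scale on any array. The SD of their difference was 0.064. Abcb1a correlated by 0.18 with Abcb1b and 0.16 with Abcb4 over the same arrays. These values describe 24 arrays that share groups and slides, and none was computed from the deposited log2 values. There, sham female WT 3 read 15.66 for Abcb1b and 15.15 for Abcb4, and the 2 genes lay closer together on every other array. Testosterone female WT 3, on the same slide, read 15.15 and 15.37. Both arrays had an RNA integrity number of 3. The close likeness on sham female WT 3 thus depends on the scaling.

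For scale, probes with an SD of at least 0.5 over the arrays were paired. Among 314 pairs of different probes for 1 gene the median correlation was 0.912, and 16 pairs (5.1%) reached the correlation of Abcb1b with Abcb4. Among 5436753 pairs of different genes, the pair of Abcb1b and Abcb4 itself included, 56 reached it. For 35 bright probes spotted more than once, the SD over arrays of the log2 difference between 2 spots of the same probe had a median of 0.047 and ranged from 0.027 to 0.24. The value of 0.064 for Abcb1b and Abcb4 lies inside that range.

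**Figure D3:**
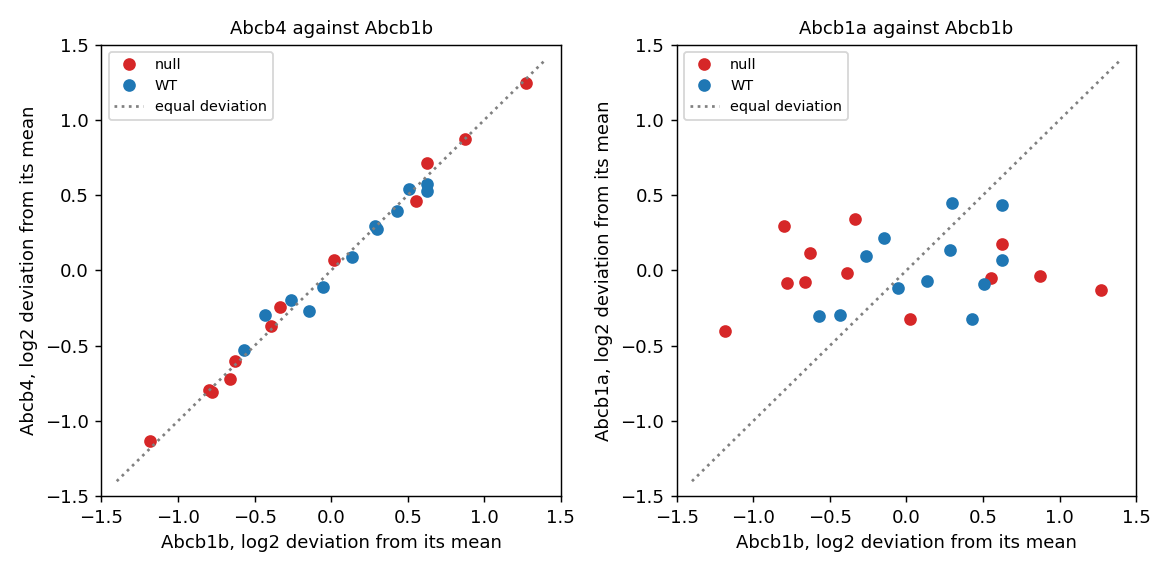
Abcb4 (left) and Abcb1a (right) plotted against Abcb1b on the 24 arrays, each axis as the log2 deviation of the level from that gene's own mean, with null arrays in red, WT arrays in blue and a dotted line of equal deviation. Abcb4 lies along the line, with a correlation of 0.995, and Abcb1a is scattered about a level band, with one of 0.18.

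The genes whose levels ran most like Abcb1b over the 24 arrays, after Abcb4, were Acox3 (r = 0.911), Skap1 (0.881), Btbd11 (0.871) and Zmat5 (0.867), and over the 8 group means their correlations were between 0.941 and 0.954. Acox3 encodes a peroxisomal acyl-CoA oxidase and Skap1 an adaptor protein of T cell signalling. Abcb4 shared Acox3 (0.892), Skap1 (0.881) and Btbd11 (0.878) and added Tmem200a (0.875). The nearest to Abcb1a were Fam72a (0.792), Plscr1 (0.783), Gphn (0.753), Tmtc3 (0.742) and Erap1 (0.741), where Plscr1 encodes a phospholipid scramblase and Gphn the scaffold protein gephyrin. In castrated against sham null males Skap1 fell by 1.08 ± 0.14 (limma adjusted p = 0.00045), Tmem200a by 1.33 ± 0.23 (adjusted p = 0.00515), Btbd11 by 0.92 ± 0.18 (adjusted p = 0.0148), Acox3 by 0.66 ± 0.14 (adjusted p = 0.0237) and Zmat5 by 0.76 ± 0.17 (adjusted p = 0.0329). These genes were chosen for following the same 24 arrays, so their falls are a description.

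Sequence upstream of Abcb1b and Abcb4 is shown because these neighbours read alike. The 250 bases before each RefSeq start in GRCm38.p6, plus strand, are chr5:8797897-8798146 for Abcb1b and chr5:8893471-8893720 for Abcb4. Capitals mark the letters of a CCAAT box (CCAAT or ATTGG), a GC box (GGGCGG or CCGCCC) and a steroid receptor motif (AGAACA or TGTTCT), on either strand.
Abcb1b: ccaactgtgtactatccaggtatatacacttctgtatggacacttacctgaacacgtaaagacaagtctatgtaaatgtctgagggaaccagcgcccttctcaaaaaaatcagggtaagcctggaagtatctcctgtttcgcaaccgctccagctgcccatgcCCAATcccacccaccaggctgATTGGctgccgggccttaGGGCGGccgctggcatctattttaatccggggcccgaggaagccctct
Abcb4: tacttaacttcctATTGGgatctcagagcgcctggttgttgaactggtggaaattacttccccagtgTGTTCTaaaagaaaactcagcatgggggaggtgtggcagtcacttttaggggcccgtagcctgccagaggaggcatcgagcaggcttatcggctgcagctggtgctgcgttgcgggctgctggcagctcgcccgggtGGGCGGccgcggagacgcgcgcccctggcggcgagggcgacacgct
The CCAAT letters occur at 2 places upstream of Abcb1b and 1 place upstream of Abcb4, and 33.8% of 32851 RefSeq windows of the same length hold them. The GC box letters occur at 1 place in each, as in 32.7% of windows. The steroid receptor motif occurs at 1 place upstream of Abcb4 and not upstream of Abcb1b, and 16.1% of windows hold it. The letters AAGGTCA of the site bound by Nr5a1, the main transcription factor of steroidogenic cells, which 4.1% of windows hold, and TGACG of the cyclic AMP response motif, which 17.8% hold, were in none of the 3 windows. The Abcb1a window, chr5:8566841-8567090, held none of the 5 motifs. It lies before the RefSeq start used here, and other possible starts of Abcb1a were not read. A match describes letters only.

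Other genes on the same stretch of chromosome 5 were read for comparison. Of 15 neighbours 14 were measured, and in castrated against sham null males none was called by limma, with 3 at an unadjusted p under 0.05: Steap2 at -0.62 ± 0.18 (adjusted p = 0.151), Steap4 at -0.67 ± 0.29 (adjusted p = 0.435) and Steap1 at -0.57 ± 0.26 (adjusted p = 0.467). Steap genes encode metalloreductases of the membrane. Over all features 1% were called and 9.66% had an unadjusted p under 0.05, so the absence of calls among 14 genes is near that share and sets the neighbours apart in no way. The median difference of the 14 was -0.11, against 0.00 over all features. Rundc3b, beside Abcb1a, was at -0.22 ± 0.27 and Crot, a carnitine acyltransferase gene beyond Abcb4, at -0.24 ± 0.31. Elsewhere Steap1 fell in null against WT glands, by 1.57 in sham females (adjusted p = 0.00574) and by 1.46 in castrated males (adjusted p = 0.00692), and Steap4 was 0.56 ± 0.14 higher in the high-androgen groups (adjusted p = 0.042).

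Other ABC transporters were read beside them. Of 17 genes for exporters of drugs, conjugates, bile salts or lipids 14 were measured, and in castrated against sham null males none was called by limma, with 3 at an unadjusted p under 0.05. These were Abca1, the cholesterol exporter, at 0.64 ± 0.18 (adjusted p = 0.132), Abcc5 at 0.47 ± 0.20 (adjusted p = 0.416) and Abcg1, another cholesterol exporter, at 0.61 ± 0.27 (adjusted p = 0.459). Abcg2, a further multidrug pump, was at 0.19 ± 0.14 (adjusted p = 0.79), and the median of the 14 was 0.20, against 0.00 over all features. With the same shares of 1% and 9.66% over all features, no call among 14 genes says nothing particular of the exporters. Of 7 further ABCB genes, whose proteins pair up to form a pump, all were measured, and 1 was called lower and none higher in the same comparison, with a median of -0.07. In the average over 4 pairs Abca1 was lower in the high-androgen groups, by -0.56 ± 0.09 (adjusted p = 0.00118), the reverse of the sign of Abcb1b and Abcb4.

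Of 12 regulators known to act on these pumps in other tissues 11 were measured, and none was called in castrated against sham null males, where Ybx1, a Y-box protein, was at -0.50 ± 0.19 (unadjusted p = 0.0197, limma adjusted p = 0.364) and was the only one at an unadjusted p under 0.05, beside the 1% and 9.66% of all features. The nuclear receptor genes Nr1h3 and Rxra were called in the average over 4 pairs, Nr1h3 at 0.40 ± 0.10 (adjusted p = 0.0292) and Rxra at -0.46 ± 0.11 (adjusted p = 0.0333), high minus low androgen, where 2.79% of features were called. Rxra was also called in sham females against sham males of WT genotype, at 0.93 ± 0.23 (adjusted p = 0.0377), where 2.01% were.

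Marker genes of the gland's cells were set beside the transporters. The 11 markers of steroidogenic cells of the zona fasciculata, the layer that makes corticosterone, were well above background on 24 of 24 arrays. Their summed signal was 1872 to 2092 times the 75th percentile in castrated null males, against 1623 to 2122 in sham null males, and 1980 to 2424 in sham null females. None of the 11 was called by limma in castrated against sham null males or in sham null females against males. Over all features 1% and 0.746% were called there, so no call among 11 genes is near those shares. Nr5a1 (unadjusted p = 0.0328) and Mrap (unadjusted p = 0.0109) were the only ones at an unadjusted p under 0.05. The median differences of the 11 were 0.02 and 0.01. The 10 endothelial markers summed to 75.7 to 80.5 in castrated null males, against 72.2 to 90.6 in sham null males.

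Other markers differed in this comparison, though not all were called. The 3 markers of the X-zone, the inner layer of the mouse cortex that androgens remove, summed to 200.6 to 274 in castrated null males. In sham null males 1, 2 and 3 they summed to 121, 183 and 6.86. Sham null 1 and 2 carried opposite-sex signal, and none of the 3 markers was called in castrated against sham null males. In the average over 4 pairs, where 2.79% of features were called, all 3 were called lower in the high-androgen groups. Akr1c18, a steroid dehydrogenase gene, was at -6.59 ± 0.87 (limma adjusted p = 0.000188). The 5 mast cell markers summed to 2.32 to 3.39 in castrated null males, against 1.05 to 1.42 in sham null males. Of the 5, 2 were called higher, where 1% of all features were called. Cpa3, a mast cell protease gene, rose by 1.94 ± 0.33 (adjusted p = 0.00501). Of the 6 markers of the zona glomerulosa, the outer layer that makes aldosterone, Cyp11b2 rose by 2.16 ± 0.49 (adjusted p = 0.0351), while Agtr1b fell by 2.48 ± 0.35 (adjusted p = 0.000937) and Vsnl1 fell by 3.52 ± 0.52 (adjusted p = 0.0016). In sham null females against sham null males, 0.746% of all features were called. There 1 of the 6 zona glomerulosa markers was called, Agtr1b at -1.57 ± 0.35 (adjusted p = 0.0372). Of the 5 mast cell markers 1, the protease gene Cma1, was called higher. In the average over 4 pairs, high minus low androgen, Agtr1b was at 0.71 ± 0.17 (adjusted p = 0.0288), Vsnl1 at 1.20 ± 0.26 (adjusted p = 0.014), Cpa3 at -0.68 ± 0.17 (adjusted p = 0.0292) and Nr5a1 at -0.62 ± 0.13 (adjusted p = 0.00977), and Cma1 was called lower. Their part in the differences of Abcb1b and Abcb4 was not tested.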

How the data were processed

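Adrenal RNA of 24 mouse samples was read on one-colour arrays of 62976 features, 59305 of them not controls. Per the file headers, the deposited intensity values come from Agilent Feature Extraction (protocol GE1_107_Sep09), and the processed signal had its background subtracted within the array. A second deposited file gives log2 values, normalized between arrays by the authors with a method not given in the sources used here, and served as an alternative. The labels name Qiagen extraction and Cy3 labelling.

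The processed signal was taken to log2 after each array was scaled by its 75th percentile. Outlier spots, 160 to 283 per array, were left out and spots of a probe averaged. Probes well above background on at least 3 arrays were kept (36874 of 55681), and the probe of highest mean stood for a gene, leaving 31080 features, 20764 with a symbol. Symbols were updated from RefSeq by accession (26413 probes) or symbol (4594), kept from the file (4758) or missing (19916). The 8 group means were fitted with limma 3.58.1 in R 4.3.3 (lmFit, eBayes, up to 16 residual and 2.24 prior degrees of freedom), tables being read by data.table (1.17.8) and sequences and plots handled in Python 3.11.15 with matplotlib 3.10.9. The fit was also run on simulated data with independent noise on each array, which leaves out any likeness within slides or replicate numbers. Precision is limited by 3 arrays a group.

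The 3 genes and the gene and marker lists were chosen with earlier results of these data known. From the lists, called members were named first, then up to 2 of smallest p, and the 5 genes most like each member. Steap1 and Abcg1 in the castration comparison, and Abcg2, Rundc3b and Crot, were named after their values were seen, as were the markers outside that rule. 1 gene that this rule takes is not reported here by name and stays in the counts. Arrays of replicate numbers 1 to 3 were not treated as pairs in the fit: over 84 pairs of arrays that share a number, deviations from the group means correlated by 0.226 on average by -0.354 at least and by over 0.1 in 68 pairs, against -0.109 on average between numbers. No 2 arrays were identical. Alternatives covered background and normalization, filters, blocks, covariates, weights and arrays left out.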

Additional observations from a re-analysis of the deposited data

How the results depend on the processing

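Abcb1b and Abcb4 kept their call and direction in castrated against sham null males and in female against male null sham glands under 37 of 38 alternatives each, and in the average of high against low androgen under 37 of 37. Of these alternatives 24 left out a single array. In the first 2 comparisons most such arrays were in neither group and acted only through the shared spread. The exception in the first 2 was omission of the 9 arrays with opposite-sex signal, which gave -1.35 for Abcb1b and -1.25 for Abcb4 after castration and -1.29 and -1.16 for sex. That setting leaves 1 array on some sides, and it turned the null minus WT value of Abcb4 in sham males to -0.0302 and that of Abcb1a in castrated males to 0.0232. Abcb1a was called in none of the alternatives.

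The null minus WT difference in castrated males, just short of the threshold, passed for Abcb1b and Abcb4 at -1.10 and -1.12 with normexp and quantile normalization, at -1.12 and -1.13 with quantile normalization, at -1.10 and -1.10 in the deposited value table and at -1.14 and -1.13 with array weights. It passed at the unmoved values of -1.10 and -1.09 with probes filtered on all arrays, slide block, trended robust fit and omission of the 2 albumin arrays. With each array left out in turn Abcb1b ranged from -1.21 to -0.96 and Abcb4 from -1.20 to -0.96. Omission of testosterone female null 1 or 2, or of sham female null 3, brought both genes past the threshold (adjusted p 0.0343 to 0.0407 for Abcb1b), and omission of sham female WT 2 or sham male null 3 brought Abcb4 alone past it (adjusted p 0.0492 and 0.0495). These arrays are in neither group and act through the shared spread. Array weights also brought the difference of the castration effect past it, at -1.52 and -1.53, and the testosterone effect on Abcb4 in null females, at 1.00.

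The replicate numbers name no shared animal, but numbers 1 to 3 coincide with slides 1 to 3 apart from the 2 arrays of slide 4. With the replicate block the castrated null minus WT values were -1.10 for Abcb1b (adjusted p = 0.0109) and -1.09 for Abcb4 (adjusted p = 0.01), past the threshold, and the block changed no other call of the 3 genes. It raised the number of features called by over 1.5 times in 8 comparisons, among them to 405 for sex in null glands and 1383 for the average of null minus WT.

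Other signs turned as follows, all for values not called. Abcb4 in testosterone against sham WT females turned to 0.0198 with normexp and quantile normalization and 0.0304 in the value table, and it ranged from -0.291 to 0.00613 with arrays left out. Abcb1a in female against male null sham glands turned to 0.00394 with RNA integrity as a covariate and 0.0721 with array weights, and it ranged from -0.139 to 0.120 with arrays left out. Its null minus WT value in sham males turned to -0.0331 with array weights and -0.0619 without the albumin arrays, and ranged from -0.0619 to 0.133 with arrays left out. The same ranges were -0.276 to 0.0313 for null minus WT in sham females, -0.00790 to 0.180 for castration in null males and -0.0754 to 0.0156 for the average of null minus WT.

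Within single slides, 1 array against 1 and with no test, these values lay further from the fitted ones than the spread between replicates. For null minus WT testosterone females they were 0.456 (Abcb1a), -0.276 (Abcb1b) and -0.135 (Abcb4) on slide 1, and 0.889 (Abcb1b) and 0.912 (Abcb4) on slide 2. Null minus WT gave 0.717 (Abcb4) on slide 1 in sham males and, for Abcb1a in castrated males, -0.530, -0.510 and 0.362 on slides 1, 2 and 3. Castration in null males gave -2.05 (Abcb1b) and -2.05 (Abcb4) on slide 1 and -1.25 (Abcb4) on slide 3. Testosterone gave 0.163 (Abcb4) on slide 1 and -0.549 (Abcb1b) on slide 2 in WT females, and 0.298 (Abcb1b) and 0.362 (Abcb4) on slide 1 and 1.21 (Abcb1b) and 1.21 (Abcb4) on slide 3 in null females. Female minus male gave -0.223 (Abcb1b) and -0.243 (Abcb4) on slide 2 in WT glands. In null glands it gave -1.26 (Abcb1b) and -1.24 (Abcb4) on slide 2, and for Abcb1a 0.247 on slide 1 and -0.353 on slide 3. The cause was not tested.

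The number of features called depended on the setting. With its range over the alternatives, it was 151 (63 to 409) null against WT in sham females, 11 (4 to 47) in testosterone females, 26 (5 to 606) in sham males, 217 (23 to 940) in castrated males. It was 186 (81 to 1218) for castration in WT males, 312 (12 to 1552) in null males, 23 (4 to 135) for testosterone in WT females, 65 (19 to 197) in null females, 624 (297 to 1456) for sex in WT glands, 232 (21 to 2242) in null glands. It was 743 (444 to 1970) for the average of null minus WT, 867 (644 to 1744) for that of high minus low androgen, 25 (2 to 444) for the difference of the castration effect, 30 (19 to 72) for that of the testosterone effect.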
